A study of Mus musculus with 8 samples.

Results

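Gnas, Grb10, Igf2r and Kcnq1 are 4 imprinted loci of the mouse, in which the copy inherited from the mother and the copy inherited from the father are expressed and methylated differently. Each locus was taken from 5 kb upstream of its outermost curated RefSeq start site to the end of the gene on mm10, and every covered CpG cytosine between these limits was a member. This gave 1043 of the 2130064 cytosines on chromosomes 1 to 19, X and Y, of which 478 lay in Gnas, 175 in Grb10, 153 in Igf2r and 237 in Kcnq1. Methylation was measured by reduced representation bisulfite sequencing (RRBS), which cuts DNA at CCGG with MspI and reads unmethylated cytosines as T, in cells sorted by the study as type A spermatogonia from testes of F1 C3H/HeN males at postnatal day 6. The control group comprised 4 samples from offspring of dams given tap water. The arsenic group comprised 4 samples from offspring of dams given 85 ppm sodium arsenite in tap water from gestational day 8 to 18. For each sample 8 testes of 4 mice were pooled, and the cells were taken with magnetic beads against the surface protein CD49f (Itga6), so that a value is an average over animals and over whatever cells the beads retained. Levels are given as the percentage of reads that kept the C at a cytosine, averaged over cytosines without weights.

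Imprinting is set in the germ line, where parental marks are erased in primordial germ cells and laid down again according to the sex of the embryo. At most imprinted loci the mark is laid down in the oocyte, at a differentially methylated region (DMR) that often contains the promoter of a long noncoding RNA, and it is then kept on the maternal copy in the cells of the body. Somatic cells therefore carry methylation on 1 of 2 copies of such a region, whereas male germ cells carry it on neither copy. The region upstream of H19 is of the opposite kind, since it is methylated on the paternal copy in somatic cells and on both copies in male germ cells.

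Gnas encodes the stimulatory G protein alpha subunit from exon 1, and alternative first exons upstream give Nesp, which is expressed from the maternal copy, and Gnasxl, the untranslated exon 1A transcript and the antisense RNA Nespas (Gnasas1 in RefSeq), which are expressed from the paternal copy. Grb10 encodes an adaptor of receptor tyrosine kinases. Igf2r encodes the receptor that clears insulin-like growth factor 2, and the antisense RNA Airn starts inside it. Kcnq1 encodes a potassium channel subunit, and the antisense RNA Kcnq1ot1 starts in one of its introns.

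The following stretches of the mm10 reference (RefSeq sequence, plus strand) show where methylation was read, since MspI fragments cover only a part of each region. For 8 of the 11 covered regions the 180 bases with most covered cytosines outside untranslated exon sequence are shown (none is shown for Nespas, Gnas exon 1A and Kcnq1), and capitals mark CpGs with a covered cytosine on at least 1 strand. Nesp lay at chr2:174285037-174285216 in a Gnas exon, Gnasxl at chr2:174298040-174298219 in a Gnas exon, Gnas exon 1 at chr2:174330639-174330818 in the intron that follows it, the Grb10 intronic CpG island at chr11:12025625-12025804, the Grb10 upstream start at chr11:12037665-12037844 outside the gene, Airn at chr17:12741571-12741750 in an Igf2r intron, Igf2r at chr17:12769830-12770009 upstream of its start, and Kcnq1ot1 at chr7:143295547-143295726 in a Kcnq1 intron.
Nesp: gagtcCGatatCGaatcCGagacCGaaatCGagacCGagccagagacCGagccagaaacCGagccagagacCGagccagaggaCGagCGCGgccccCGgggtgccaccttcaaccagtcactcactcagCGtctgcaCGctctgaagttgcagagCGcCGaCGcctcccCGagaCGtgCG
Gnasxl: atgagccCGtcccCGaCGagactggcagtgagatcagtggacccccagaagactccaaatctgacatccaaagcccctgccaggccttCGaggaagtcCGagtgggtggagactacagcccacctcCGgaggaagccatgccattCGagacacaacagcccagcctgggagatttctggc
Gnas exon 1: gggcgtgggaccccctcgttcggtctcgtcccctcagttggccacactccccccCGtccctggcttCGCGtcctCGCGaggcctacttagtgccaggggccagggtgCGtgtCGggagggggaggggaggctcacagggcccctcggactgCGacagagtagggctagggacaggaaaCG
Grb10 island: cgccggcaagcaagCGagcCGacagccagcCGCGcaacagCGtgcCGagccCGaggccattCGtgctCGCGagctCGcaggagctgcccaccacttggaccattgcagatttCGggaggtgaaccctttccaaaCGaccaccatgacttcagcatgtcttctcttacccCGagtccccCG
Grb10 upstream start: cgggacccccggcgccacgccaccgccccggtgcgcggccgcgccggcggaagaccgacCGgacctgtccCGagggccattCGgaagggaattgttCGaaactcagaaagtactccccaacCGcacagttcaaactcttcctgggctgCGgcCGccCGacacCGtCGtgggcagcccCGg
Airn: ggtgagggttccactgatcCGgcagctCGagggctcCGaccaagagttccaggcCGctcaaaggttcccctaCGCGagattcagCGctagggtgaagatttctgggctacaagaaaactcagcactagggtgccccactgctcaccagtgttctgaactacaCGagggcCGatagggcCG
Igf2r: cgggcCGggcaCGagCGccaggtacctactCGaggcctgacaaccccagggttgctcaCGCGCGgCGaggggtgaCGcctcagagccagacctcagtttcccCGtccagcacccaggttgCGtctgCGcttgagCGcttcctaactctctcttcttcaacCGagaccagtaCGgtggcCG
Kcnq1ot1: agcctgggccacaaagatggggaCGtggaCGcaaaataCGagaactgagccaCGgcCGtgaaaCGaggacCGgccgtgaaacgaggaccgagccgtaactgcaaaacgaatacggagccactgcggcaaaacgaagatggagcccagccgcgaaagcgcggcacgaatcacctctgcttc
The 21 covered cytosines of the Nesp stretch averaged 67.4% ± 6.75 in the control group and 72.9% ± 4.73 in the arsenic group (SD, n = 4 each, as throughout). The 18 of the Airn stretch averaged 59.8% ± 9.67 and 60.3% ± 11.5. The 9 of the stretch behind Gnas exon 1 averaged 0.599% ± 0.838 and 0.126% ± 0.253. In the stretch upstream of Igf2r, the 27 covered cytosines ranged from 28.6% to 60.6% in their means over the 8 samples.

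Coverage summed over the cytosines of a sample was between 96428439 and 133406260, where a read that spans several cytosines is counted at each. The median coverage of a cytosine was 31 to 44 reads. Cytosines were present in the table only if covered by at least 10 reads in every sample, which limits what could be seen. The table held 15.9% of the CpG cytosines that the reference has in Gnas, 7.20% in Grb10, 6.30% in Igf2r and 4.54% in Kcnq1. Of 11 start sites, 10 had at least 3 covered cytosines within 1 kb and were read as start site windows. The exception was the downstream start of Grb10, with 1 of 34 cytosines covered, and the maternally methylated DMR of Grb10 was therefore read at the intronic CpG island 1.3 kb further into the gene, a choice made after the coverage was seen. Of the 17 CpG islands computed from the sequence, 13 were covered. The 4 islands without a covered cytosine were chr2:174298597-174299017 next to the Gnasxl start, chr2:174330845-174331267 next to Gnas exon 1, chr7:143107366-143107847 at the Kcnq1 start and chr7:143296293-143296600 at the Kcnq1ot1 start.

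Intermediate levels were common at the 4 loci, above all in Gnas. Levels from 30% to 70% were found at 530 of the 1043 cytosines (50.8%), compared with 12.5% of the cytosines of the whole table. The share was 75.3% in Gnas, 29.7% in Grb10, 37.3% in Igf2r and 25.7% in Kcnq1, so that Gnas held 360 of the 530. In Grb10 most cytosines (54.9%) were under 10%. Among cytosines from 30% to 70%, samples of one group varied more at the 4 loci than in the whole table. The median within-group SD was 12.6 percentage points against 10.2. The median overdispersion was 2.36 against 1.78, where read counting alone gives a mean (not a median) of about 1. This is a description with no test, since neighbouring cytosines are read on the same fragments.

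**Figure D1:**
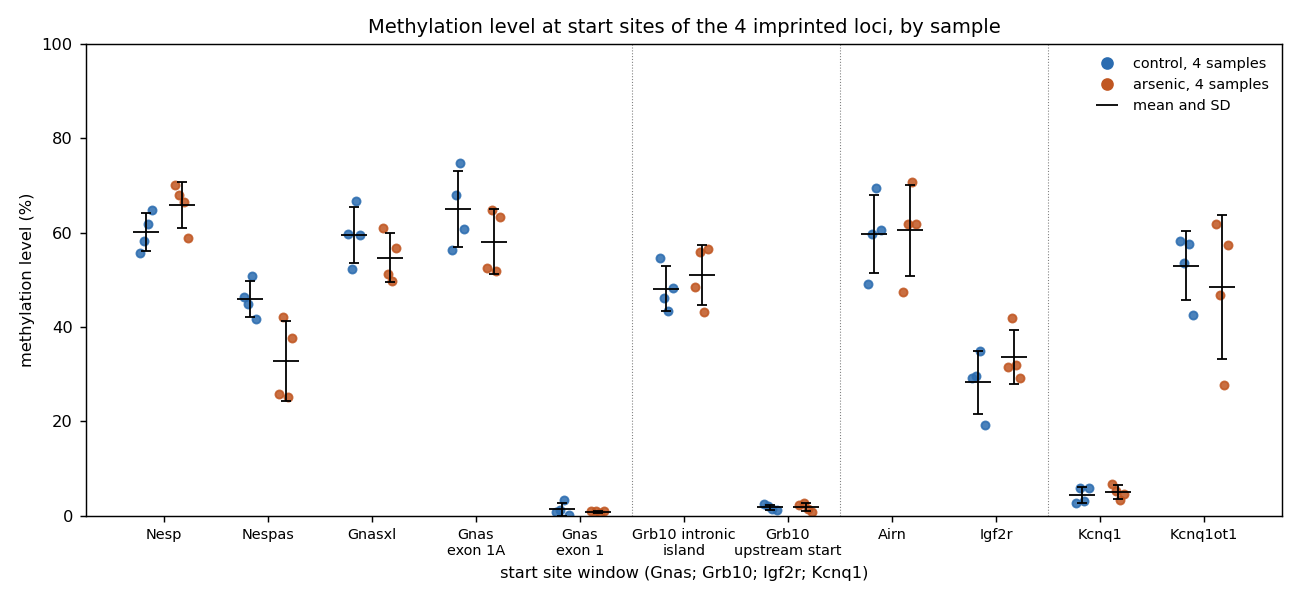
Methylation level (%, vertical axis from 0 to 100) at the 10 covered start site windows and the Grb10 intronic island, in order along Gnas, Grb10, Igf2r and Kcnq1, with 1 point per sample and the mean and SD of 4 control and 4 arsenic samples. Means of 1.10%, 1.76% and 4.68% at Gnas exon 1, the Grb10 upstream start and Kcnq1 stand below the other regions, which lie between 30.9% and 63.0%, and the groups overlap in every region shown.

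Gnas contributed the widest stretch of intermediate methylation. The Nesp window (63 cytosines), whose DMR is methylated on the paternal copy in somatic cells, was at 55.7%, 58.3%, 61.8% and 64.7% in control samples 1 to 4 and at 70.02%, 67.9%, 66.4% and 58.8% in arsenic samples 1 to 4. The arsenic mean was 5.67 points above the control mean (65.8% ± 4.88 against 60.1% ± 3.97), with overlapping groups and p = 0.114 in the two-sided exact permutation test. Levels were not even within the window, since the 8 cytosines upstream of the start averaged 49.5% ± 15.4 over the 8 samples and the 55 downstream averaged 64.9% ± 6.39. The groups differed in opposite directions on the 2 sides, with 56.1% ± 19.05 in control and 43.0% ± 8.62 in arsenic samples upstream, and 60.7% ± 4.54 and 69.1% ± 5.23 downstream. These were values with no test, and the groups overlapped on both sides.

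Nespas, whose promoter is maternally methylated in somatic cells, was lower than Nesp. Its 18 cytosines, which lay upstream of the start and on the plus strand only, were at 46.3%, 44.8%, 50.7% and 41.7% in control samples and at 25.8%, 42.1%, 25.2% and 37.7% in arsenic samples. Of the 4 arsenic samples, 3 were below the lowest control sample, and the fourth, arsenic sample 2, lay 0.431 points above it. The arsenic mean was 13.2 points lower (32.7% ± 8.52 against 45.9% ± 3.76), which was the largest difference among the windows, and its p in the exact permutation test was 0.0571 (0.571 after adjustment over the 10 windows). Over the alternatives tried the difference lay between -16.3 and -9.77 points, with exact permutation p from 0.0286 to 0.371 before and from 0.286 to 0.971 after adjustment. It was -9.77 points with a coverage of at least 20 in every sample (p = 0.371, exact permutation test) and -11.8 points within 500 bases of the start (p = 0.257, exact permutation test). The lowest p came from leaving out arsenic sample 2, which separates the groups by construction.

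Gnasxl, which encodes a longer form of the same alpha subunit, lay 2.42 kb from the Nespas start in the direction of Gnas transcription. Its 48 cytosines were at 59.7%, 52.2%, 66.7% and 59.4% in control samples and at 61.0%, 51.3%, 49.8% and 56.8% in arsenic samples (p = 0.257, exact permutation test). The window differed on the 2 sides of its start. The 16 cytosines upstream averaged 55.2% ± 7.16 in control and 41.0% ± 9.78 in arsenic samples, while the 32 downstream averaged 61.6% ± 6.54 and 61.6% ± 4.19. No test was made of the sides, and the groups overlapped on both.

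The exon 1A window holds the DMR that is maternally methylated in somatic cells and lies next to the promoter of the G protein subunit. Its 68 cytosines were at 56.3%, 68.0%, 74.8% and 60.9% in control samples and at 52.5%, 64.8%, 51.9% and 63.3% in arsenic samples (65% ± 8.15 and 58.1% ± 6.86, p = 0.229, exact permutation test). Gnas exon 1 starts 2.26 kb further on, and the 23 covered cytosines of its window, which lay downstream of the start, were nearly unmethylated. They were at 0.871%, 1.12%, 3.29% and 0.145% in control samples and at 0.951%, 0.879%, 0.525% and 0.992% in arsenic samples, without a cytosine above 5.15% in its mean over the 8 samples. The boundary between intermediate methylation and its absence thus fell between these neighbouring windows in each of the 8 samples.

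**Figure D2:**
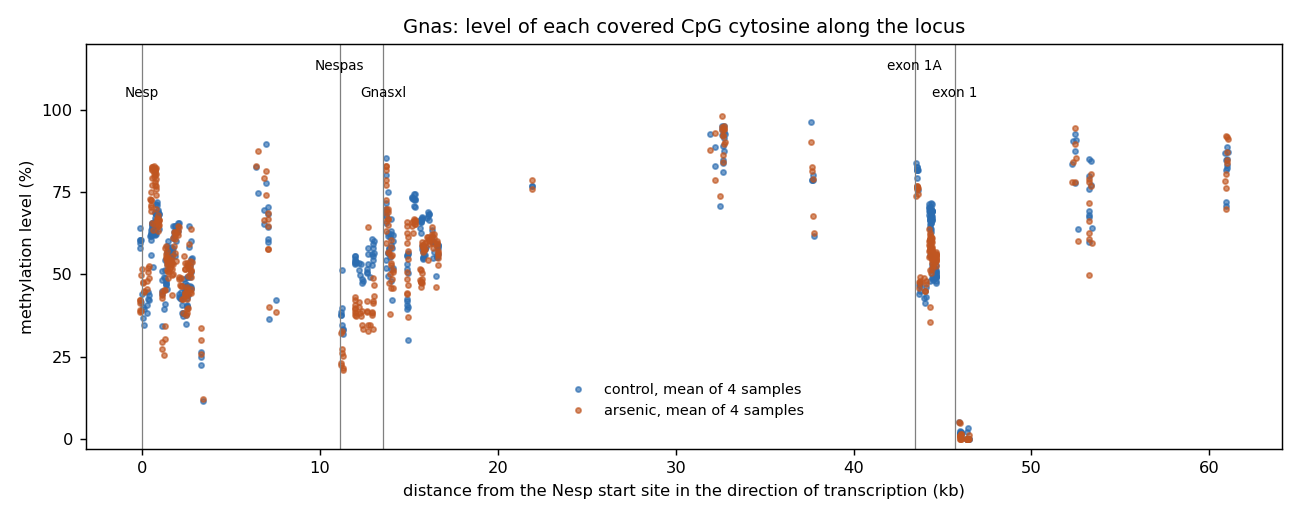
Methylation level (%, vertical axis) of each of the 478 covered Gnas cytosines against its distance from the Nesp start in kb, with the mean of 4 control and the mean of 4 arsenic samples as separate points and the 5 start sites as lines. Points lie mostly between 30% and 70% around Nesp, Nespas, Gnasxl and exon 1A, near 0 at exon 1, and above 70% in most stretches further away. The arsenic points lie below the control points between Nespas and Gnasxl.

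Intermediate levels at Gnas were not limited to the start site windows. Of 23 bins of 1 kb with at least 3 cytosines, 13 averaged between 30% and 70%, 5 of them outside the windows, and those with most cytosines were chr2:174285320-174286319 and chr2:174286320-174287319 behind Nesp and chr2:174299320-174300319 behind Gnasxl. The first bin (49 cytosines) ranged from 36.9% to 65.7% over the 8 samples. The second (47 cytosines) ranged only from 46.2% to 52.2%, with 47.9% ± 1.63 in control and 49.2% ± 2.53 in arsenic samples. The bin behind Gnasxl (31 cytosines), which lay mostly in exon sequence, was at 64.9% ± 5.89 and 57.6% ± 7.51. The 7 bins above 70% lay outside the windows.

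At Grb10, the intronic CpG island chr11:12025614-12026650 was partly methylated, whereas the promoter at the upstream start was nearly unmethylated. The 27 covered cytosines of the island, which is the maternally methylated DMR of the gene in somatic cells, were at 54.6%, 46.2%, 43.3% and 48.4% in control samples and at 48.5%, 56.0%, 43.1% and 56.5% in arsenic samples (48.1% ± 4.77 and 51.0% ± 6.40, p = 0.486, exact permutation test). The samples of both groups were interleaved. In the adjacent bin chr11:12026499-12027498, between the island and the downstream start, 18 cytosines were at 66.4%, 65.9%, 57.8% and 34.8% in control samples and at 77.6%, 70.4%, 62.9% and 37.0% in arsenic samples, so that control sample 4 and arsenic sample 4 lay 23.0 and 25.9 points below the rest of their groups.

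The upstream start of Grb10, which drives the form made from the maternal copy in most tissues, was unmethylated over 97 cytosines. Levels were 2.43%, 1.97%, 1.30% and 1.26% in control samples and 2.33%, 2.63%, 1.34% and 0.868% in arsenic samples, which differed by 0.0531 points in the mean. Levels were higher further upstream. The bin chr11:12038499-12039498, 1.58 kb from the start, averaged 26.6% ± 3.42 and 26.6% ± 2.08, and chr11:12040499-12041498 averaged 77.5% ± 2.5 and 76.6% ± 1.47.

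The Igf2r promoter was partly methylated, at 30.9% over the 8 samples. In somatic cells the Igf2r promoter becomes methylated on the paternal copy. Its 52 cytosines were at 29.1%, 29.7%, 35.0% and 19.2% in control samples and at 31.5%, 42.0%, 32.0% and 29.2% in arsenic samples (28.2% ± 6.60 and 33.6% ± 5.67, p = 0.343, exact permutation test). Control sample 4 was the lowest and arsenic sample 2 the highest. The average combined 30 cytosines upstream of the start at 43.1% ± 9.59 over the 8 samples with 22 downstream at 14.4% ± 7.55. It therefore depended on which cytosines were kept, and with a coverage of at least 20 in every sample the window averaged 14.8% instead of 30.9%.

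Airn, whose promoter in an Igf2r intron carries the maternal mark, was at 49.1%, 59.7%, 69.4% and 60.6% in control samples and at 47.4%, 61.8%, 70.8% and 61.8% in arsenic samples over 22 cytosines. The means were 59.7% ± 8.32 and 60.5% ± 9.67, and p was 0.800 in the exact permutation test. The cytosines of the window had similar levels among themselves, between 56.0% and 65.9% in their means over the 8 samples, whereas samples of one group differed by up to 23.4 points. Elsewhere in Igf2r methylation was high, with 7 of 10 bins above 70%, of which 4 were above 90%. One bin, chr17:12725406-12726405, with its 5 cytosines in exon sequence 15.4 kb from the nearest start, was low, between 10.2% and 16.6% in the 8 samples.

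**Figure D3:**
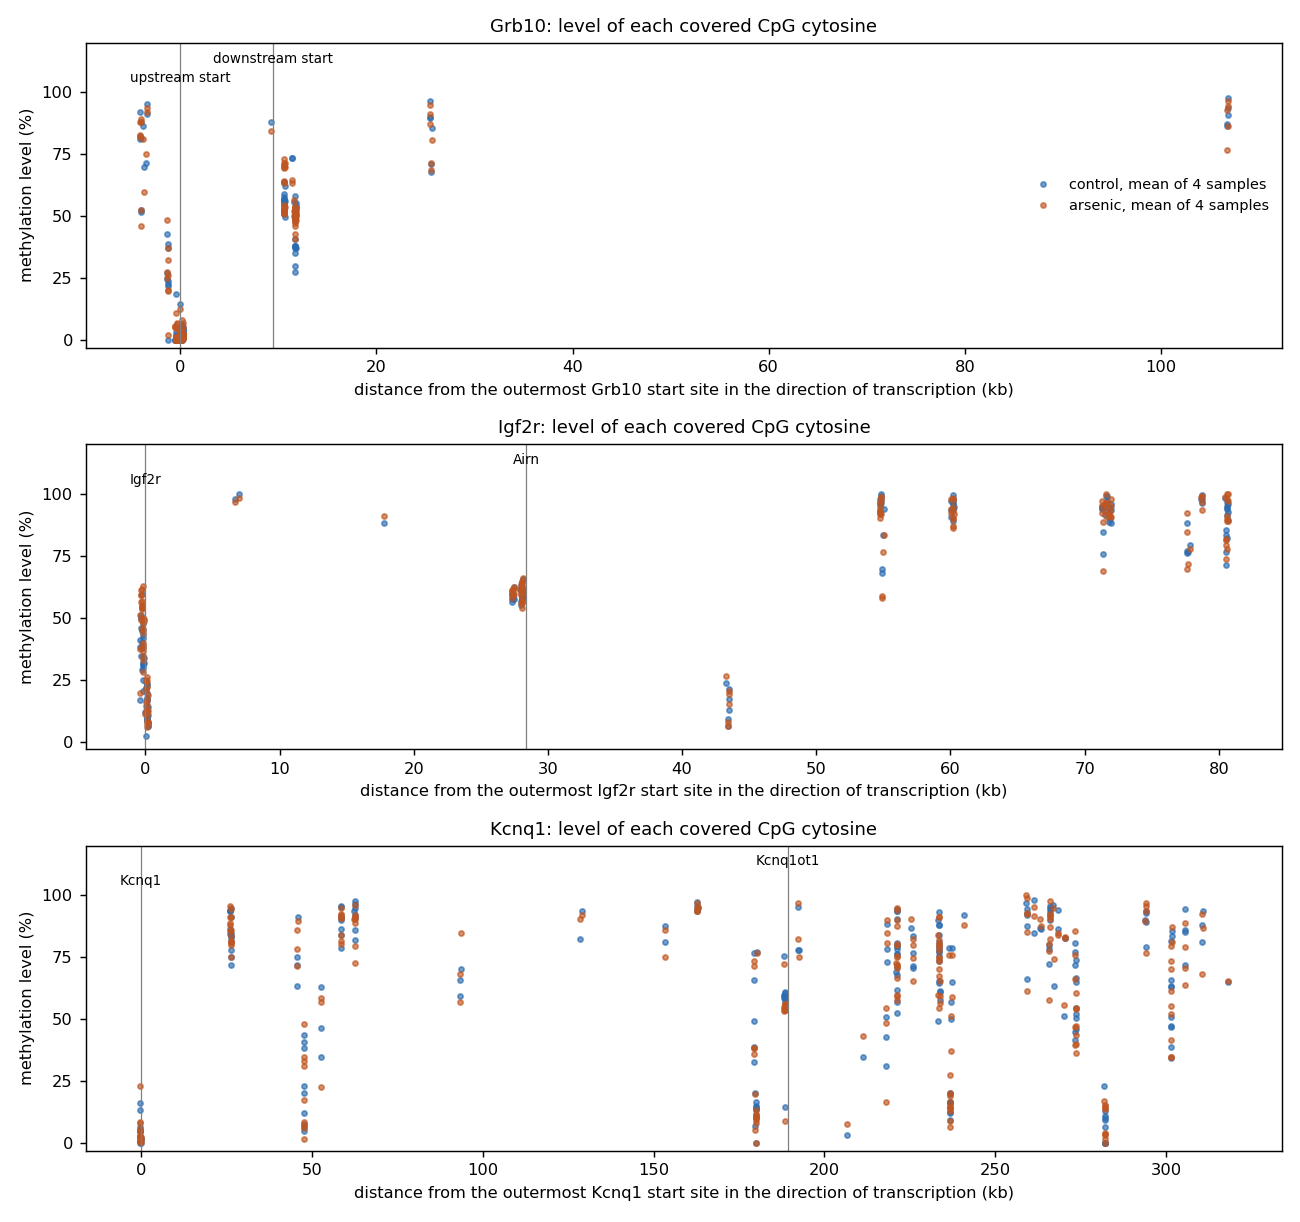
Methylation level (%, vertical axes) of each covered cytosine of Grb10 (175), Igf2r (153) and Kcnq1 (237) against its distance from the outermost start of the gene in kb, in the direction of transcription, with the mean of 4 control and of 4 arsenic samples as separate points and start sites as lines. The Grb10 upstream start and the Kcnq1 start are near 0, Airn and Kcnq1ot1 are near the middle of the scale, and the Igf2r start is lower. Many other stretches are above 70%, while the stretches at and next to the Grb10 island, 1 upstream of the Grb10 start and several inside Igf2r and Kcnq1 are partly methylated or low.

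Kcnq1 was the longest and most thinly covered locus. The 14 cytosines upstream of its start were at 2.74%, 5.79%, 3.12% and 5.88% in control samples and at 6.76%, 5.24%, 3.35% and 4.52% in arsenic samples (p = 0.629, exact permutation test). The Kcnq1ot1 window, the promoter DMR that carries the maternal mark in somatic cells, held only 7 covered cytosines, but these had a median coverage of 78 reads. They were at 58.3%, 53.6%, 57.6% and 42.5% in control samples and at 61.8%, 46.8%, 27.7% and 57.4% in arsenic samples. Arsenic sample 3 was the lowest by 14.8 points and arsenic sample 1 the highest, so that the arsenic group spanned the control group (48.5% ± 15.2 against 53.0% ± 7.28, p = 0.657, exact permutation test). Without arsenic sample 3 the difference changed from -4.53 to 2.38 points. Overdispersion was highest here among the windows, with a median of 5.91 over the cytosines.

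Away from its starts, Kcnq1 was mostly methylated but not evenly. Of 29 bins, 17 were above 70%, and 6 bins outside the windows lay between 30% and 70%. The 3 with most cytosines were chr7:143380254-143381253 (60.4% ± 6.73 in control and 54.2% ± 3.14 in arsenic samples), chr7:143408254-143409253 (60.1% ± 2.45 and 61.1% ± 2.83) and chr7:143325254-143326253 (60.8% ± 9.12 and 62.5% ± 2.85). A further 4 intronic bins were low although their centres were between 9.79 and 93.2 kb from the nearest start. They averaged 22.0% ± 6.22 and 21.0% ± 5.70 at chr7:143154254-143155253, 25.8% ± 2.12 and 23.9% ± 2.21 at chr7:143286254-143287253, 24.2% ± 7.27 and 22.4% ± 3.37 at chr7:143343254-143344253, and 5.61% ± 1.94 and 7.86% ± 2.19 at chr7:143389254-143390253. None of the 237 covered cytosines of Kcnq1 lay in an exon.

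Over the 8 samples the windows formed an order from Gnas exon 1 (1.10%) through the Grb10 upstream start (1.76%), Kcnq1 (4.68%), Igf2r (30.9%), Nespas (39.3%), Kcnq1ot1 (50.7%), Gnasxl (57.1%), Airn (60.1%) and exon 1A (61.6%) to Nesp (63.0%). Neighbours in this order differed in 3 of 9 pairs by a two-sided exact sign-flip test over the 8 samples, each in 8 of 8 samples (adjusted p = 0.0234, the smallest unadjusted p being 0.00781). Kcnq1 was 2.91 points above the Grb10 upstream start, Igf2r was 26.3 points above Kcnq1, and Kcnq1ot1 was 11.4 points above Nespas. With a coverage of at least 20 in every sample, 0 of 8 pairs passed. Igf2r was then still 11.7 points above Kcnq1 in 8 of 8 samples, at the smallest sign-flip p of 0.00781 (adjusted p = 0.0625). A single pair cannot pass the adjustment there, so the count does not show that a step was lost. In the main setting, neighbours from Kcnq1ot1 upward were not distinguishable, with adjusted p from 0.169 to 0.711 and steps of 1.40 to 6.38 points. Samples did not keep a common rank across the 7 partly methylated windows. Control sample 3 was the highest at 3 of them, and arsenic sample 3 was the lowest at 4 and the highest at 1.

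The samples were compared with markers of the cells that a testis sample could hold. The promoters of genes used in germ cells, among them Dazl, Ddx4, Sycp1 and Stra8, are kept unmethylated in the germ line and are methylated in many somatic cells. Of the 14 promoters listed (1 kb upstream to 100 bases downstream of the start), 12 were covered, and their mean ranged from 82.1% to 87.2% in control and from 81.2% to 83.6% in arsenic samples. None of the 12 had a mean under 50%, the lowest being Tdrd1 at 60.2% and the highest Dazl at 94.9%. Of 9 maternally methylated promoters elsewhere in the genome, 6 were covered, at 61.8% to 66.02% in control and 55.1% to 66.5% in arsenic samples. The stretch from 2 to 4 kb upstream of H19, with 4 covered cytosines, was at 72.3%, 81.2%, 69.9% and 58.5% in control and at 58.1%, 69.5%, 60.9% and 59.7% in arsenic samples. The promoter levels go against the label of germ cells, in which both kinds of promoter are unmethylated. In germ cells the H19 region is methylated on both copies, and its 4 cytosines were at intermediate to high levels, from 58.1% to 81.2%. The paper reports more mRNA of Itga6 and Gfra1, its type A spermatogonia markers, in this fraction than in its prospermatogonia. It also reports that methylation profiles separated the stages. The levels at the 4 loci are therefore reported as those of the sorted fraction, and the part of other cell types in them was not tested.

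**Figure D4:**
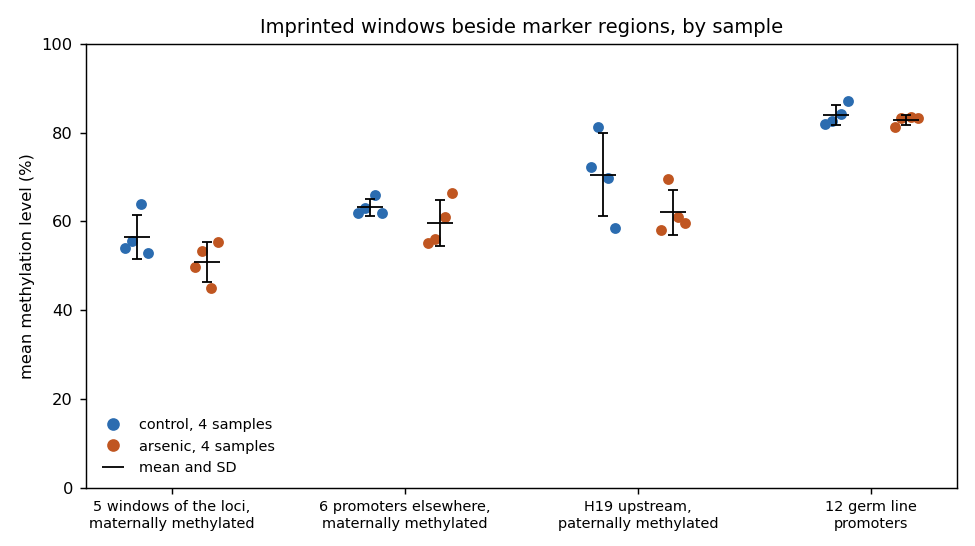
Mean methylation level (%, vertical axis from 0 to 100) of 5 maternally methylated windows, of 6 maternally methylated promoters elsewhere, of the H19 upstream stretch and of 12 germ line promoters, with 1 point per sample and the mean and SD of 4 control and 4 arsenic samples. The 5 windows are Nespas, Gnasxl and exon 1A in Gnas, Airn in Igf2r and Kcnq1ot1 in Kcnq1, without the Grb10 island. The mean of the 5 windows lies between 45.1% and 63.9%, and that of the germ line promoters between 81.2% and 87.2%.

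The maternally methylated windows were then set beside the germ line promoters sample by sample. The mean of Nespas, Gnasxl, exon 1A, Airn and Kcnq1ot1 was 53.9%, 55.7%, 63.9% and 53.0% in control samples and 49.7%, 53.4%, 45.1% and 55.4% in arsenic samples (56.6% ± 4.95 against 50.9% ± 4.53, a difference of -5.72 points, p = 0.171 in the exact permutation test). Over the 8 samples, which come from both groups, its Pearson correlation with the germ line promoter mean was 0.165 (permutation p = 0.660) and its Spearman correlation 0.0238 (permutation p = 0.977). Without the 2 samples farthest from the median of the promoters, control sample 4 and arsenic sample 1, Pearson's r was 0.258. The H19 stretch had a Pearson correlation of -0.267 with the promoters (permutation p = 0.534) and a Spearman correlation of -0.0952 (permutation p = 0.840), and r without the same 2 samples was -0.443. Adjusted over these 2 relations, both permutation p-values were 0.660. The germ line promoters spanned only 5.98 points, so that a relation would be seen only if it were steep.

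The comparison of arsenic with control tested whether the loci as a whole were altered by the exposure. Gnas averaged 54.4%, 56.1%, 59.0% and 59.3% in control samples and 53.8%, 57.2%, 52.9% and 57.5% in arsenic samples, a difference of -1.84 points. Grb10 averaged 26.9% ± 2.10 and 27.8% ± 2.12, Igf2r 61.3% ± 3.32 and 62.8% ± 2.41, and Kcnq1 60.9% ± 1.60 and 60% ± 1.221. The groups overlapped at each locus, and the differences, of 0.874, 1.49 and -0.987 points for these 3, were smaller than the spread between samples of one group. Leaving out 1 sample moved the difference between -2.76 and -1.02 points at Gnas, 0.114 and 1.76 at Grb10, 0.288 and 2.91 at Igf2r, and -1.72 and -0.392 at Kcnq1. Exact permutation p-values were 0.286, 0.6, 0.457 and 0.371 in the order given, and 0.6 for each after adjustment over the 4 loci. With 4 samples against 4 the smallest p is 0.0286, and a single locus could not go below 0.114, or a single window below 0.286, after adjustment. Among the 10 windows 5 were higher and 5 lower in arsenic samples, 0 passed, and 0 had an unadjusted p under 0.05 in this test.

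Single cytosines were also tested, with the model that the study names for this purpose. A cytosine was called differentially methylated (DMC) if its logistic regression gave a q of at most 0.01 and its groups differed by at least 10 points. Of all cytosines in the table, a share of 0.552% passed (0.323% lower and 0.228% higher in arsenic samples). At the 4 loci 3 of 1043 cytosines passed (0.288%), and these were lower in arsenic samples, a share near the 0.323% of the whole table in that direction. With a coverage of at least 20 in every sample the loci held 6 DMCs of 636 cytosines (0.943%, against 0.713% of the whole table), and with at least 30 they held 4 of 438 (0.913% against 0.835%). Of the DMCs with a coverage of at least 20, 1 lay in Gnas and 5 in Kcnq1, and the 4 with at least 30 lay in Kcnq1. In the main setting no DMC was called by logistic regression in Gnas, Grb10 or Igf2r. There 93, 21 and 25 cytosines had an unadjusted p under 0.05 in this test. Such a p was found at 16.9% of the cytosines of the 4 loci and at 17.8% of the whole table.

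The 3 DMCs lay in introns of Kcnq1, outside the start site windows. The first, at chr7:143344236 on the minus strand and 47.7 kb from the Kcnq1ot1 start, was at 60.4%, 54.3%, 57.1% and 55.6% in control samples and at 41.3%, 30%, 40% and 38.0% in arsenic samples, with 45 to 71 reads each. The pooled reads differed by -20.1 points (q = 0.00668), with group means of 56.9% ± 2.61 in control and 37.3% ± 5.07 in arsenic samples. This cytosine lay in the low bin chr7:143343254-143344253 named above. The 12 cytosines of that bin averaged 24.2% ± 7.27 in control and 22.4% ± 3.37 in arsenic samples, and the groups overlapped. The other 2 lay 63 bases apart, at chr7:143380792 and chr7:143380855 on the plus strand, in the partly methylated bin described above. The former was at 53.2%, 63.0%, 48.6% and 43.7% in control samples and at 37.0%, 34.4%, 34.1% and 40.6% in arsenic samples (-16.0 points, q = 0.00452). The latter was at 83.7%, 77.5%, 64.8% and 69.2% in control samples and at 42.0%, 56.4%, 58.6% and 61.2% in arsenic samples (-18.1 points, q = 5.3e-04). Groups did not overlap at these 3 cytosines, which is no further support, since they were called for a group difference. When each of the 8 samples was left out in turn, they were still called in 2, 4 and 7 of the 8 cases. With limma, or with the variance scaled for overdispersion, 0 cytosines were called at the 4 loci and 0 of 2130064 in the whole table (0.00%), so that these tests single out no locus. At the 4 loci 33 and 31 cytosines had an unadjusted p under 0.05 by these 2 tests (3.16% and 2.97%), compared with 5.11% and 3.87% of the whole table. The count by logistic regression also depended on single samples, since the 4 loci held 5, 6, 3 and 5 DMCs without control samples 1 to 4 and 11, 6, 5 and 11 without arsenic samples 1 to 4. Of these, Gnas held 4, 2, 1 and 2 without control samples 1 to 4 and 6, 1, 1 and 8 without arsenic samples 1 to 4. Igf2r held 2, 1 and 1 without arsenic samples 2, 3 and 4, and Grb10 held 1 without control sample 2. The share at the loci was then between 0.288% and 1.05%, compared with 0.541% to 0.615% of the whole table. It was above the whole table without control sample 2 or arsenic sample 1, 2 or 4, and below it without control sample 1, 3 or 4 or arsenic sample 3.

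**Figure D5:**
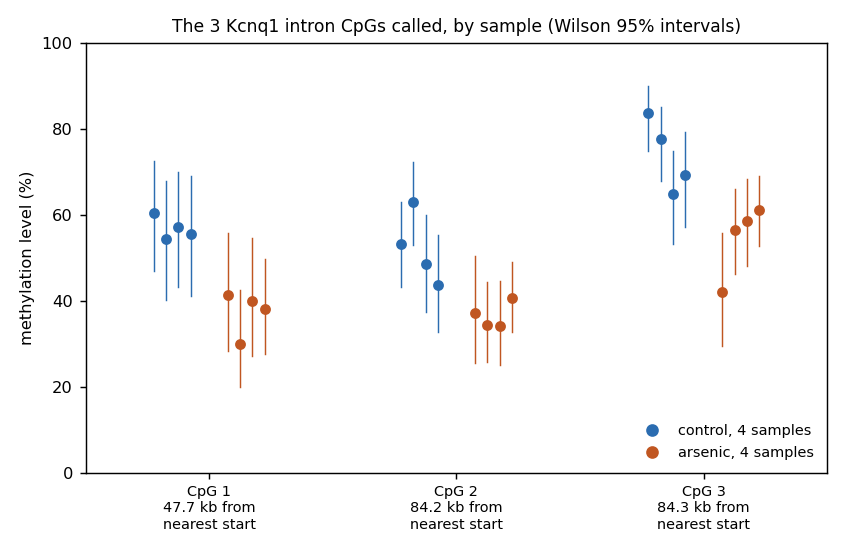
Methylation level (%, vertical axis from 0 to 100) of the 3 Kcnq1 intron cytosines called as DMCs, 1 point per sample with its Wilson 95% interval, which covers read-counting error only. The 4 arsenic samples lie below the 4 control samples at each cytosine, between 30% and 61.2% against 43.7% and 83.7%.

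A looser description gave a similar picture. Control and arsenic samples did not overlap at 21 of the 1043 cytosines (2.01%), compared with 2.10% of the whole table. Of 70 bins, 3 did not overlap (4.29%), compared with 3.14% of 198197 bins of the whole table, and these were named after their values were seen. The first, chr2:174296320-174297319 with 23 cytosines, lay between the Nespas and Gnasxl starts and was at 50.03%, 47.7%, 58.0% and 57.5% in control samples and at 39.6%, 38.7%, 32.6% and 46.6% in arsenic samples. Of its cytosines 16 belonged to the Nespas and Gnasxl windows, so that it is not separate from the differences given there. The other 2, in Kcnq1 introns, had 8 and 4 cytosines. Control and arsenic samples were at 91.7% ± 1.98 and 87.6% ± 2.55 at chr7:143169254-143170253, and at 84.4% ± 4.07 and 75.5% ± 4.06 at chr7:143412254-143413253. Of the 13 covered CpG islands 0 had groups that did not overlap. A share over the islands of the whole table was not computed, so this count is a description only.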

How the data were processed

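RRBS was performed by the authors on 4 control and 4 arsenic samples. Per the labels' processing notes, reads were trimmed with Trim Galore 0.6.5, mapped to mm10 with Bismark 0.22.3 and combined with methylKit 1.22.0. The deposited table gives raw counts of reads with C and with T for each CpG cytosine on each strand, and every cytosine has at least 10 reads in each sample. It was checked that coverage equals the sum of both counts (0 exceptions). Columns of other samples numbered 0. The mice were C3H/HeN whereas the reference is C57BL/6J, and strain variants at CpGs were not removed. Reads carried no molecular identifiers, so that intervals cover counting error only.

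Loci, start sites and exons were taken from curated RefSeq transcripts on GRCm38, and start sites within 500 bases were merged. Windows reached 1 kb to either side, a cytosine near 2 starts went to the nearer, and at least 3 covered cytosines were required. CpG islands had at least 300 bases, a GC share of at least 0.5 and an observed to expected ratio of at least 0.6. Unweighted mean levels were compared by two-sided exact permutation tests over 70 assignments of the samples, with Benjamini-Hochberg adjustment, and neighbouring windows by exact sign-flip tests. Samples of a group are separate pools of animals. DMCs were called across the whole table by logistic regression of the pooled counts (a likelihood-ratio test), keeping those with a Benjamini-Hochberg q up to 0.01 and 10 points or more between the groups. limma 3.58.1 on log2 ratios of the counts with a pseudocount of 1, overdispersion scaling and a Cochran-Mantel-Haenszel test were alternatives, and the procedures were tested on simulated data. Covered and uncovered windows were named without exception, and the 1 kb bins named by rule were those at 30% to 70% outside windows, at most 3 per locus with most cytosines. The bins upstream of the Grb10 start and the low bins of Igf2r and Kcnq1 were named outside this rule, for their levels. The members, lists and rules were chosen with earlier results of these data known. The Grb10 island, the 2 sides of a start, the bins named outside the rule and the bins whose groups did not overlap were added after the data were seen. Samples with the same number were not paired, as the labels do not tie them. Their deviations at the single cytosines of the whole table correlated by -7.8e-05 to 0.00178, and a tie at the level of regions was not tested. Software was scipy 1.17.1 and numpy 2.4.6 under Python 3.11.15, matplotlib 3.10.9 and R 4.3.3.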

Additional observations from a re-analysis of the deposited data

How the results depend on the processing

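No difference between arsenic and control samples in the average of a locus or a window passed the adjusted threshold in the main setting or in an alternative, with adjusted p from 0.229 to 0.971 for loci and from 0.286 to 1 for windows, and 0 windows passed under each. These designs are too small for a single window to pass, so that this says nothing about stability. The sign of small differences changed with the averaging. The Gnas locus average, 1.84 points lower in arsenic samples, was 0.232 points higher with coverage weights, and the Grb10 average, 0.874 points higher, was lower, at -1.40 points with a coverage of at least 30, -1.66 with coverage weights and -0.0515 with both strands summed. The difference at the Grb10 upstream start was -0.358 with a coverage of at least 20, -0.877 with at least 30, -0.0519 with coverage weights and -0.0661 in windows of 500 bases to either side. Gnasxl was at 0.715 in windows of 500 bases to either side, and Gnas exon 1 was at 1.66 in windows of 2 kb to either side, which reach further towards exon 1A. The cause of the other sign changes was not tested.

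Leaving out 1 sample at a time gave differences from -2.76 to 5.12 points at Airn, from -0.923 to 0.125 at Gnas exon 1, from -0.228 to 0.361 at the Grb10 upstream start, from -0.0150 to 1.12 at Kcnq1 and from -8.99 to 2.38 at Kcnq1ot1. The correlation of the H19 stretch with the germ line promoters ranged from -0.596 to 0.107 in the same way, being positive without control sample 4. The count of DMCs at the 4 loci, 3 in the main setting, ranged from 3 to 11 without 1 sample (0.288% to 1.05%, with 0.541% to 0.615% over the whole table), was 6 with a coverage of at least 20 (0.943% against 0.713%), and was 0 with overdispersion scaling and 0 with limma, which also called 0 in the whole table (31 and 33 cytosines of the loci had an unadjusted p under 0.05). The count of neighbouring windows that differed went from 3 of 9 to 0 of 8 with a coverage of at least 20, where the Nesp window had fewer than 3 cytosines left. A single pair cannot pass the adjustment in that setting, so the drop in the count alone does not show which steps were lost. The step from the Grb10 upstream start to Kcnq1 weakened, from 2.91 points in 8 of 8 samples to 1.12 points in 5 of 8.

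With the replicate number as a block, 3 DMCs were called at the 4 loci (0.288%, against 0.377% of the whole table). The 2 lower in arsenic samples lay in Kcnq1 and the 1 higher lay in Gnas. The exact sign-flip test for pairs gave a p of 0.375 for Gnas, Grb10 and Igf2r and 0.5 for Kcnq1, where 4 pairs cannot go below 0.125. The pairing changed no other call, and the numbers were not taken to pair the samples. No sample stood apart from its group by Dixon's criterion in 28 groups of 4 examined over the loci and windows, where chance alone would give about 1.4. Coverage is 1 limit, since most CpGs of the 4 loci were not read, few cytosines stood for Kcnq1ot1 and H19, and the level of the Igf2r window fell from 30.9% to 14.8% when a coverage of at least 20 was asked for.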
